A study of Mus musculus with 2 samples.

Results

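The 5 mouse genes that encode kainate receptor subunits, Grik1, Grik2, Grik3, Grik4 and Grik5, were examined for accessible chromatin in adult cerebral cortex. They were taken by name from 21728 annotated protein-coding genes on the autosomes and X, and the locus of each was its gene body with 10 kb on either side. DNase-seq, in which nuclei are lightly cut with DNase I and the cut ends are sequenced so that open DNA collects cuts, had been applied to the left cortex of 2 females of the B6CASTF1/J strain at 2 months of age, first-generation hybrids of the C57BL/6J and CAST/EiJ strains with no treatment named. Replicate 1 (female 5) and replicate 2 (female 6) gave a library each and formed the only group. The labels number the females separately but give both the same donor entry, so the spread between libraries may in part be technical. There is no second group, and with 2 libraries no difference between genes or sites was tested.

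Kainate receptors are ion channels opened by glutamate, assembled from these subunits and found on both sides of the synapse, where they tune transmitter release as well as carry current. GluK1, GluK2 and GluK3, the products of Grik1, Grik2 and Grik3, can form channels by themselves. GluK4 and GluK5, from Grik4 and Grik5, bind kainate with high affinity but need a partner among GluK1, GluK2 and GluK3 to make a working channel. In the cortex Grik1 is known mainly from interneurons and Grik2 and Grik5 from excitatory neurons.

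An accessible site found in both animals reached the start-site window of all 5 genes, although that of Grik5 lay between Grik5 and its neighbour Zfp574 and could not be assigned to either. The strongest Grik2 start site also lay 66 bp from a start of another gene, Gm48123. Away from the start sites the loci differed widely. Grik4 and Grik5, the partner subunits, held 36 of the 56 accessible sites that lay far from start sites and were found in both animals, 21 at Grik4 and 15 at Grik5. Grik1, Grik2 and Grik3 held 6, 8 and 6. Footprints are stretches of base pairs protected from cutting inside the open DNA. Long ones, at least 30 bp in both animals, lay at 5 of the 56 distal sites, 8.93% against 9.72% over the series, and 3 of these 5 were the strongest distal site inside Grik1, Grik4 and Grik5. The following are the reference sequences (mm10, plus strand) of the strongest distal site inside each gene and of 1 more Grik5 site with a long footprint, which lies farther downstream, each as 200 bp centred on the stronger library's peak. Capitals mark base pairs inside a footprint of both libraries.
Grik1 intron 1, chr16:88204501-88204700: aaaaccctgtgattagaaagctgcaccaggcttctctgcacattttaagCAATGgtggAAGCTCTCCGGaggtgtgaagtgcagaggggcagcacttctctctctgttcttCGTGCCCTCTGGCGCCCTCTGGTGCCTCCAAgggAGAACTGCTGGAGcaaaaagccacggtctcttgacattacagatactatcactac
Grik2 intron 2, chr10:49780491-49780690: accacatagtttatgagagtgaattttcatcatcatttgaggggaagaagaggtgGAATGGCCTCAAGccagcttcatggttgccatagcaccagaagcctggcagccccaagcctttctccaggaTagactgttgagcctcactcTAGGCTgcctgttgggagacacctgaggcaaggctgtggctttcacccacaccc
Grik3 intron 13, chr4:125702991-125703190: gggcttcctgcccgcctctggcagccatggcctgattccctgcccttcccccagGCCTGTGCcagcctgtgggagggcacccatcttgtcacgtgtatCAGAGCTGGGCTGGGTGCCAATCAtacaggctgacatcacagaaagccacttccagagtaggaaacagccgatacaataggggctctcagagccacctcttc
Grik4 intron 15, chr9:42550261-42550460: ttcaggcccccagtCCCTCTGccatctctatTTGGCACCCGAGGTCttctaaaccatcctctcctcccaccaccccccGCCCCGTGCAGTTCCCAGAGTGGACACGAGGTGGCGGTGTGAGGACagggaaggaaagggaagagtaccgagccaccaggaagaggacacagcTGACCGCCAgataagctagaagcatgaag
Grik5 intron 12, chr7:25036041-25036240: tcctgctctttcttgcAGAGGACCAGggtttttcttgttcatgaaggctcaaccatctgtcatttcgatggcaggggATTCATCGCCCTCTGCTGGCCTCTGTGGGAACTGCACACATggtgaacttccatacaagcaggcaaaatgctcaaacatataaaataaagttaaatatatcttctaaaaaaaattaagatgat
Grik5 intron 12, downstream site, chr7:25030161-25030360: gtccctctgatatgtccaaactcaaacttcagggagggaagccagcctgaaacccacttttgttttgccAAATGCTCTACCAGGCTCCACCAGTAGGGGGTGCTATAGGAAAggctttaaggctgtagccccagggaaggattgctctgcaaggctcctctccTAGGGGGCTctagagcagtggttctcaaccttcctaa

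The promoter of Grik2 and the DNA just upstream of Grik4 are shown because they were the strongest start sites of the group and were footprinted differently. The Grik2 and Grik4 promoters are RefSeq sequences (GRCm38.p6, the same build), written along each gene and running across the RefSeq start. The upstream Grik4 peak is written on the plus strand, and capitals have the same meaning.
Grik2 promoter, chr10:49788705-49789004, minus strand: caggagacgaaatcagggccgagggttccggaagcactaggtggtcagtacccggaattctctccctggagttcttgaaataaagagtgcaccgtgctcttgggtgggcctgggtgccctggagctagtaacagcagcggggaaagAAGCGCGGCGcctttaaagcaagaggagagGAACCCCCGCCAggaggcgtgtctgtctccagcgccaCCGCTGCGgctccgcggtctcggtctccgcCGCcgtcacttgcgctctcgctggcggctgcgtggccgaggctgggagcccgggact
Grik4 promoter, chr9:42944322-42944621, minus strand: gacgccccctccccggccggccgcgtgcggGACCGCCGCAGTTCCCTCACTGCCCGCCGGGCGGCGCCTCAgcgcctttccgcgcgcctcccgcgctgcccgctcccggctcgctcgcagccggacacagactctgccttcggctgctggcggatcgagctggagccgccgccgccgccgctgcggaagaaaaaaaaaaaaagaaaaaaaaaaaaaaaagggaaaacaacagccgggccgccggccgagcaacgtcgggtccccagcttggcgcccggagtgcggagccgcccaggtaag
Grik4 upstream peak, chr9:42944831-42945030: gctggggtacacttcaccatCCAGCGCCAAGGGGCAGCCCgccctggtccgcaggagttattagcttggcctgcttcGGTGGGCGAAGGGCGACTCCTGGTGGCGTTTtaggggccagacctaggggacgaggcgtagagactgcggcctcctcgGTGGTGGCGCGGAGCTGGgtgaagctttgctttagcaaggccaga

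The libraries were deep and alike. The smallest step of the deposited signal, taken as 1 cut in 1 M, puts the depth near 206 M cuts (replicate 1) and 208 M cuts (replicate 2). Peaks numbered 128269 and 119597 on the chromosomes used, and footprints 340004 and 284583. The label of the tissue was checked with marker genes: an open promoter in both animals was present at 6 of 6 genes for excitatory neurons, 5 of 7 for inhibitory neurons, 3 of 5 for astrocytes, 2 of 5 for oligodendrocytes, 1 of 4 for microglia and 0 of 6 for other tissues (liver, muscle, skin, blood and pancreas genes), beside 64.8% of all protein-coding genes. The inhibitory neuron and astrocyte counts are close to that share and say little about the label. Cortex tissue mixes all these cells, so at a weak site fewer cells with open DNA and less opening per cell cannot be told apart.

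Signal is the authors' peak height after scaling to read depth, and a site was called shared where peaks of both libraries overlapped by at least 1 bp. A shared peak within 500 bp of an annotated start site was found at 5 of 5 kainate genes, against the same 64.8% of all protein-coding genes. The Grik5 site also belongs to the start-site region of Zfp574, and the strongest Grik2 site to that of Gm48123. By mean signal the promoters ran in the order Grik2, Grik4, Grik5, Grik3, Grik1. Across all genes with a shared promoter peak the median signal was 2.94, so Grik2 (3.13) and Grik4 (2.99) lay near the middle, and Grik5 (1.40), Grik3 (1.05) and Grik1 (0.871) in the lower part, with 21.6%, 15.0% and 11.5% of genes below them. The values of Grik2 (3.31 and 2.94) and Grik4 (2.46 and 3.52) overlapped. Those of Grik5, Grik3 and Grik1 did not overlap with any other, but the gap between Grik3 and Grik1 was smaller than the SD of Grik1 (0.207, n = 2).

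Grik1, the subunit gene known from interneurons (chromosome 16, 87895900 to 88290265, minus strand), had a promoter signal of 1.02 in replicate 1 and 0.725 in replicate 2. The open site was 1100 bp wide (chr16:88289421-88290520) and covered the start sites of 9 annotated transcripts. The start sites 234 kb and 366 kb into the gene, had no peak and no base pair with a significant cut rate in either animal.

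Grik2, which encodes GluK2, the subunit of many cortical kainate receptors (chromosome 10, 49094833 to 49788766, minus strand), opened at 2 groups of start sites. The outer site (chr10:49788621-49788900) had signals of 3.31 and 2.94 in replicates 1 and 2. It was centred 5 bp from a Grik2 start and 66 bp from a start of another annotated gene, Gm48123. Its signal cannot be assigned to Grik2 alone from these data. The inner site, 5.36 kb into the gene at the start of 4 coding transcripts, had 1.56 and 1.34. Both animals therefore ranked the outer site above the inner. The other 5 annotated start sites of Grik2, between 253 kb and 685 kb into the gene, had no peak. In the promoter sequence above, 4 short runs of footprinted base pairs, the longest of 12 bp, lie around the start.

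Grik3 (chromosome 4, 125490700 to 125714173, plus strand) has 1 annotated start, and its peak had signals of 1.04 and 1.06. It was the widest promoter of the group, 1520 bp (chr4:125489921-125491440). The RefSeq promoter of Grik3 has a GC content of 82.0% with 50 CpG dinucleotides, against a median of 52.7% and 7 over 32851 RefSeq promoters.

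Grik4, a high-affinity subunit gene (chromosome 9, 42518135 to 42944493, minus strand), showed 3 adjoining peaks at its outer start. The strongest lay 438 bp upstream (chr9:42944821-42945040) with signals of 2.46 and 3.52, the next 118 bp upstream with 1.78 and 2.37, and the weakest 432 bp inside the gene with 0.906 and 0.797. Replicate 2 was higher at both upstream peaks and lower at the inner peak. The middle peak holds a run of 41 bp footprinted in both libraries, which appears in capitals in the Grik4 promoter above and contains the letters GGGCGG, the GC box that Sp-family factors bind and that 35.7% of all RefSeq promoters hold on either strand. A start site 135.8 kb into the gene had a peak of 0.408 in replicate 2 and none in replicate 1.

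Grik5, the other high-affinity subunit gene (chromosome 7, 25009849 to 25072346, minus strand), lies head to head with Zfp574, a zinc finger gene transcribed the other way. Its promoter site (chr7:25072641-25073420) had signals of 1.44 and 1.36 and was centred 685 bp upstream of the outer Grik5 start and 385 bp from a start of Zfp574. The site cannot be assigned to either gene from these data. A peak on the Grik5 side (chr7:25071941-25072140) was called in replicate 2 alone, at 0.677. RefSeq gives the Grik5 promoter 72.0% GC but 10 CpG dinucleotides, fewer than the 26, 50 and 42 of Grik2, Grik3 and Grik4; the table matched 4 of the 5 genes, not Grik1.

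Of all 17 groups of annotated start sites (sites within 500 bp of each other) in the 5 genes, 6 (35.3%) had a shared peak. Among the 52237 such groups of all protein-coding genes the share was 35.0%. At 10 of the 17, all of them internal to Grik1, Grik2 or Grik5, neither animal had a significant cut rate at any base pair of the window. The plot of start-site signals shows both libraries at each peak.

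**Figure D1:**
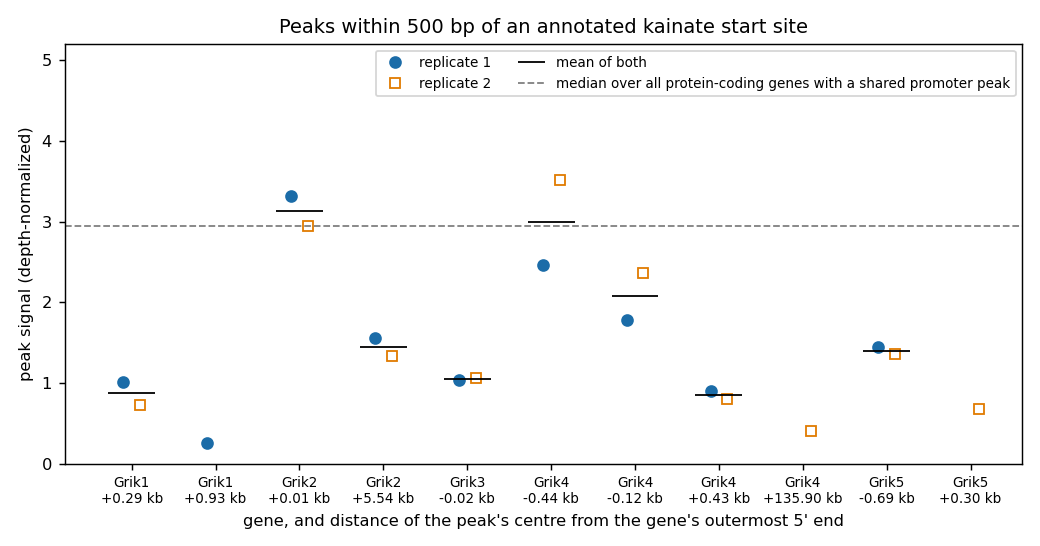
Depth-normalized signal (vertical axis) of each peak within 500 bp of an annotated kainate start site, with filled circles for replicate 1, open squares for replicate 2, a bar for the mean of shared peaks, and the median of 2.94 over all genes with a shared promoter peak as a dashed line. The outer Grik2 and Grik4 sites sit near the dashed line, and 3 peaks were called in a single library.

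Along the whole loci, 1901 kb in sum, 107 merged peaks were found, of which 67 (62.6%) were shared, against 52.2% of the 154149 merged peaks of the series. Replicate 1 alone had 27 and replicate 2 alone had 13. The peaks of a single library were weak: their signals reached at most 0.702 in replicate 1 and 0.682 in replicate 2, and all 40 lay below the median of 0.842 of the shared ones. The shared peaks had a median signal close to that of all shared peaks in the series, 0.842 against 0.796. Of the 67, 8 lay at kainate start sites, 3 at start sites of other genes and 56 were distal, that is, centred more than 1 kb from every start site. The distal ones were mostly intronic (45), with 2 in exons and 9 in the flanks.

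**Figure D2:**
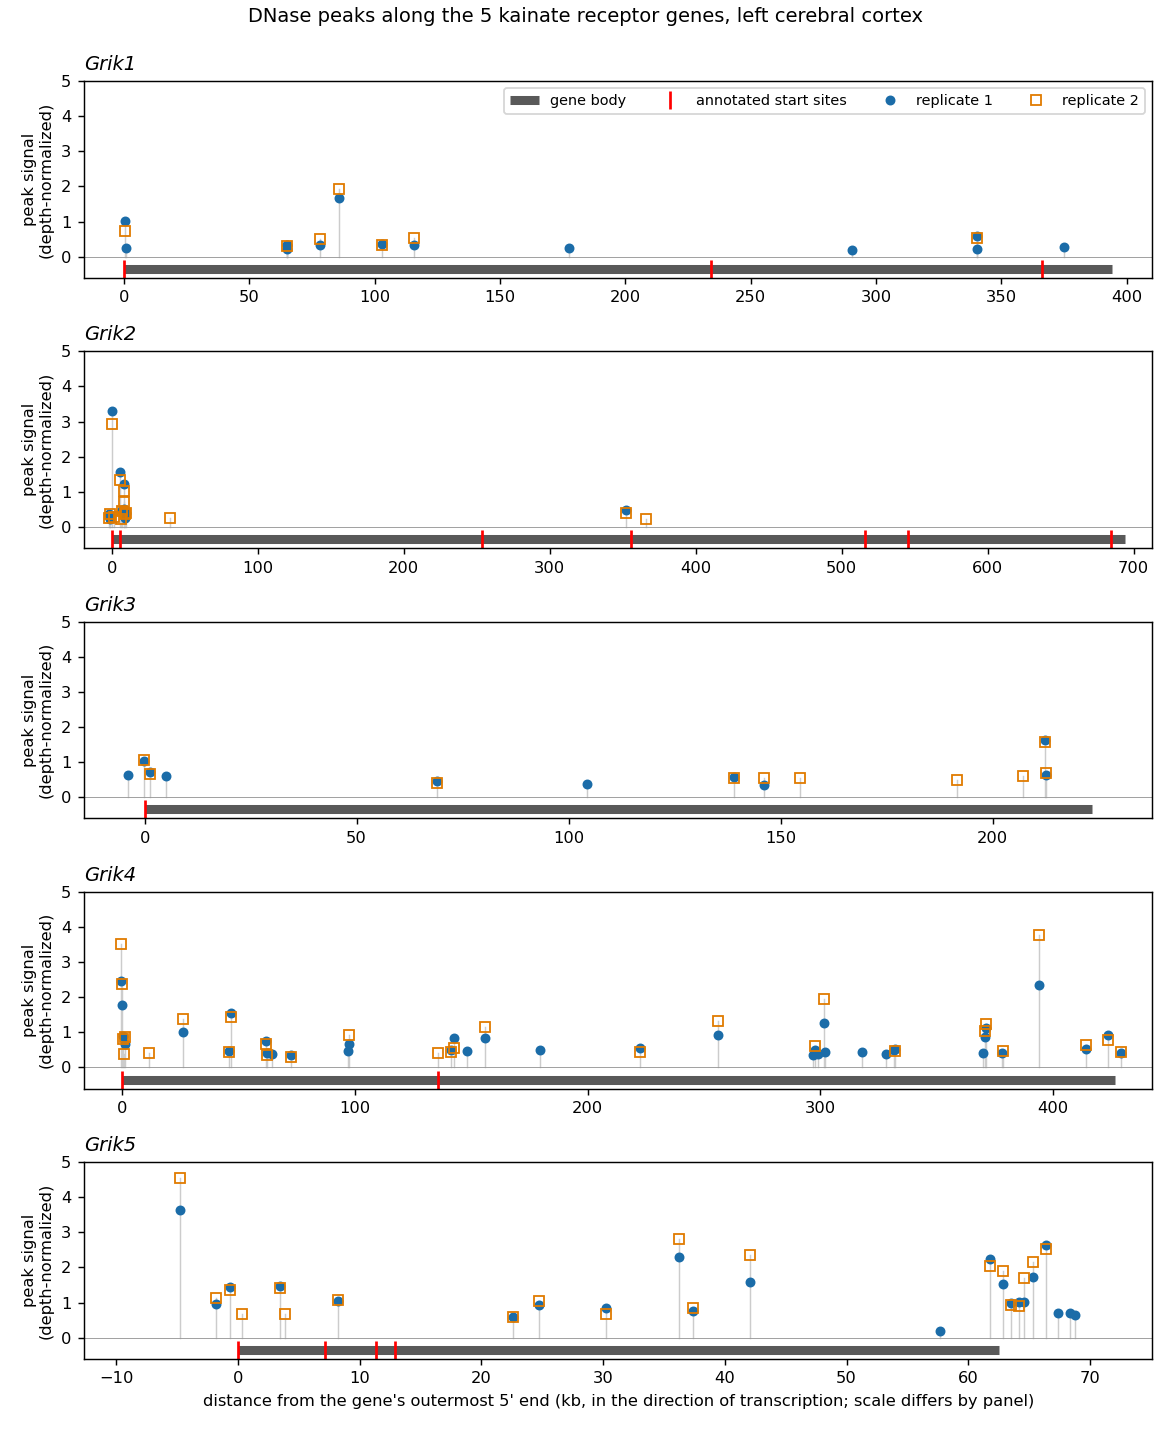
Peak signal (vertical axis, depth-normalized) against distance from the outer start of each kainate gene (horizontal axis, kb along transcription, with a different scale in each panel), with filled circles for replicate 1 and open squares for replicate 2. Grey bars are gene bodies and red ticks annotated start sites. Peaks of Grik2 crowd at its start and those of Grik4 are spread over the body. Grik5 has the most peaks for its length of 62.5 kb, with a stretch of 19.2 kb that holds no shared peak.

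Among the subunits that form channels by themselves, Grik1 had 6 shared distal peaks in a locus of 414 kb, Grik2 had 8 in 714 kb and Grik3 had 6 in 243 kb. Each was ranked against the 200 coding genes nearest to it in locus length, a description with no test. On that scale of percentiles Grik1 lay at 35.5, Grik2 at 32.5 and Grik3 at 52.0, among the bulk of genes of their length. Long stretches of the bodies held no shared peak, 224 kb of Grik1, 342 kb of Grik2 (49.3% of the body) and 69.9 kb of Grik3 (31.3%). The other 2 genes had such stretches too, the longest 66.55 kb in Grik4 (15.6% of the body) and 19.2 kb in Grik5 (30.7%).

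In Grik1 a single site stood out. It lay in intron 1, 85.7 kb from the start (chr16:88204521-88204680), and had signals of 1.67 and 1.93, a mean of 1.80 ± 0.180 (SD, n = 2). It was above the Grik1 promoter in both animals. The next strongest distal site of Grik1 (chr16:87949941-87950260, in exon 9) had 0.601 and 0.519, and the third, in intron 1, had 0.344 and 0.528. Of the 6 distal sites 5 were in intron 1, which makes up 59.2% of the body.

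The distal sites of Grik2 inside the gene crowded behind its inner start. The strongest, in intron 2 (chr10:49780461-49780720), had signals of 1.24 and 1.02 and lay 8.18 kb from the outer start. Another 4 lay within 10 kb of that start, with the best of them at 0.499 and 0.720 (chr10:49780001-49780400) and at 0.484 and 0.451 (chr10:49781941-49782220). The remaining site of the body, in intron 7 at 352 kb, had 0.480 and 0.389. Shared peaks of Grik2 thus lay at its 5′ end, apart from this weak site. Replicate 2 alone had 2 more peaks in the rest of the body, of 0.264 at 39.9 kb and 0.235 at 366 kb.

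Grik3 had its strongest distal site near the other end of the gene, in intron 13, 212 kb from the start (chr4:125702981-125703200). The signals were 1.64 and 1.59, a mean of 1.61 ± 0.0372 (SD, n = 2), above the Grik3 promoter in both animals. A weaker neighbour (chr4:125703221-125703540) had 0.620 and 0.696, and a site 1.17 kb behind the start had 0.707 and 0.668.

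Grik4 carried the most distal sites. Its 21 shared distal peaks in 446 kb put it at percentile 89.8 among genes of like length, whose median was 8. They were spread over the body, with 20 inside it. Intron 1 held 9 shared peaks, a count that includes the start-site peak 432 bp inside the gene. The strongest distal peak lay in intron 15, 394 kb from the start (chr9:42550261-42550460), with 2.35 in replicate 1 and 3.76 in replicate 2, a mean of 3.06 ± 0.994 (SD, n = 2). This was the highest distal signal of the 5 loci and as high as the Grik4 start site itself. Next came sites in intron 8 (chr9:42642941-42643160, 1.27 and 1.96) and in intron 1 (chr9:42897381-42898000, 1.56 and 1.43). Replicate 2 was above replicate 1 at the strongest and second sites, and below it at the other.

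Grik5 was the most densely open. In a locus of 82.5 kb it held 15 shared distal peaks, at percentile 99.5 against a median of 2 for genes of like length. With the body alone, 9 such peaks still put it at 98.8. Per 100 kb of gene body Grik5 had 14.4 shared peaks, against 5.16 for Grik4, 2.69 for Grik3, 1.78 for Grik1 and 1.15 for Grik2. The strongest site inside the gene was in intron 12 (chr7:25036041-25036240), with signals of 2.29 and 2.81. Exon 20, the last of the longest coding transcript, carried an 860 bp site (chr7:25010101-25010960) with 2.25 and 2.03, and intron 12 a second strong site (chr7:25030161-25030360) with 1.59 and 2.36. All 3 exceeded the Grik5 promoter site in both animals.

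The flanks of Grik5 are also open and hold start sites of neighbouring genes. They held 9 of the 18 shared peaks of the locus. Among them, a site 104 bp from a start of Zfp574 had signals of 3.64 and 4.55. Which gene these sites act on was not tested.

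The animals gave like signals across the group. At the 67 shared peaks, replicate 1 was higher at 32 and replicate 2 at 35. After centring on the median ratio of all shared peaks, a log2 ratio of −0.10 for replicate 1 over replicate 2, all 67 agreed within 2-fold, as did 99.2% of all shared peaks, and the largest difference was 0.71 on the log2 scale. Spearman's rho between the animals was 0.949 and Pearson's r of the log2 signals 0.947 over the 67 sites, given as a description, since the sites come from the same pair of libraries.

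**Figure D3:**
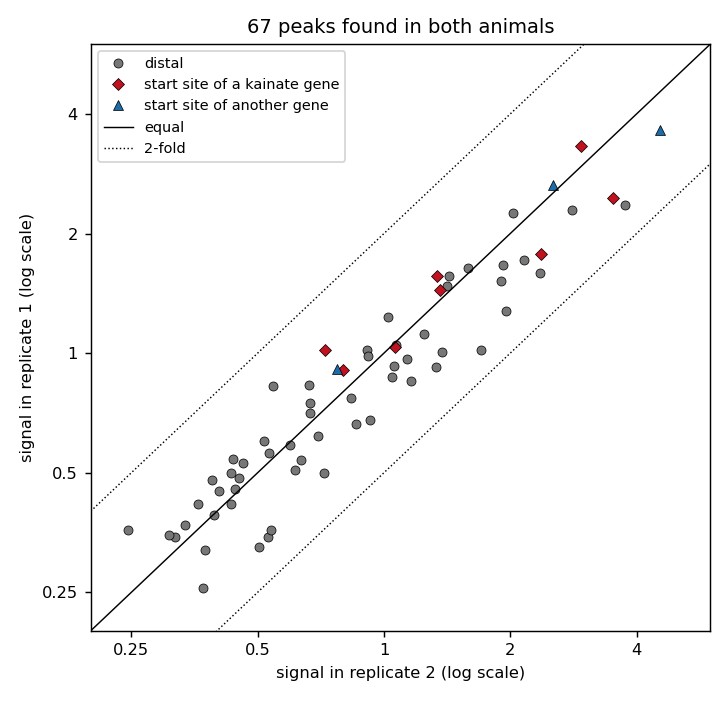
Signal of each of the 67 shared peaks in replicate 1 (vertical, log scale) against replicate 2 (horizontal, log scale), with start sites of kainate genes as diamonds, start sites of other genes as triangles and distal sites as circles. The solid line marks equal signal and the dotted lines 2-fold, and every point lies between the dotted lines.

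Footprints numbered 309 in replicate 1 and 219 in replicate 2 over the 5 loci. Of them 29.8% and 42.0% overlapped a footprint of the other animal, against 39.5% and 46.9% over the series. Of the 67 shared peaks, 43 held a footprint found in both animals and 1 held none in either. Grik4 had the largest imbalance, 116 footprints in replicate 1 against 54 in replicate 2, while Grik5 had 74 and 73. At the strongest distal site of Grik4, in intron 15, all 4 footprints of replicate 1 and all 3 of replicate 2 overlapped the other animal's. At the strongest distal site inside Grik5, in intron 12, both of replicate 1 did and 2 of 3 of replicate 2.

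Long footprints lay at the strongest distal site of 3 of the 5 genes. The share among distal sites of like signal in the series was not taken, so this count is a description and not a trait of these genes. Over all 56 distal sites the share with a run of at least 30 bp inside a footprint of both animals (8.93%) was close to that of the 53794 shared distal peaks of the series (9.72%). The 5 sites with such a run were the strongest distal sites inside Grik1 (31 bp), Grik4 (46 bp) and Grik5 (41 bp), the downstream intron 12 site of Grik5 (43 bp), and a Grik4 intron 3 site (chr9:42688241-42688440, 39 bp, signals 0.925 and 1.33). By contrast the strongest sites of Grik2 and Grik3 had runs of 13 bp and 24 bp. The median over the 56 sites was 4 bp, against 7 bp for the series.

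Of the 200 bp windows of those 5 sites, 4 held the letters of a CTCF site. For the Grik4 intron 3 window, whether the letters lie inside the long run is not given here. CTCF is the zinc finger protein that marks chromatin loop ends and protects a long stretch of DNA. The consensus was searched on both strands with at most 1 letter different from it, a looser rule than the exact search and chosen after the sequences had been seen. In Grik5 intron 12 the match was exact, GCCCTCTGCTGG on the printed strand at positions 85 to 96 of the window, counted from 1 at its left end. The downstream Grik5 site held CCAGTAGGGGGT at 90 to 101 and the Grik1 site GCCCTCTGGTGC at 125 to 136, each with 1 letter different. All 3 lie inside the capitals printed above. The long run of Grik4 intron 15 held no such match. Over the series, 72.4% of the 5226 distal windows with a run of at least 30 bp had such letters, against 17.1% of the others.

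**Figure D4:**
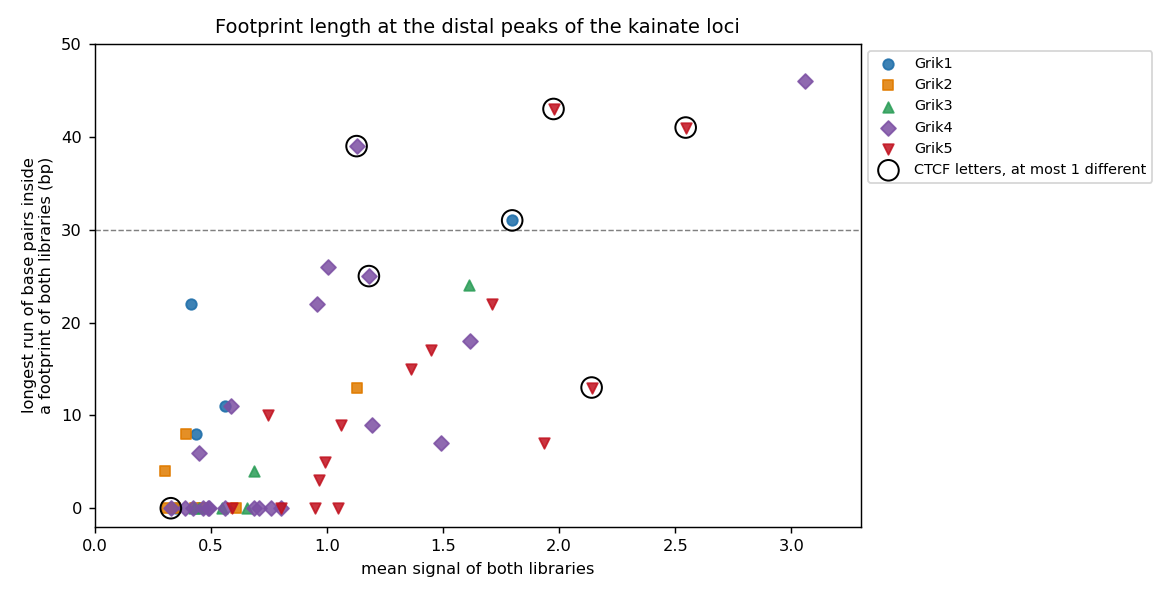
Longest run of base pairs inside a footprint of both libraries (vertical axis, bp) against the mean signal of both libraries (horizontal axis) for the 56 shared distal peaks of the kainate loci, with a marker for each gene. Rings mark windows with CTCF letters, at most 1 different, and the dashed line is at 30 bp; 4 of the 5 points above it are ringed.

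Over all 56 distal windows, the exact CTCF consensus was found in 2 (3.57%, against 8.14% of the 53794 in the series), and the looser one in 7 (12.5% against 22.5%). The letters of AP-1, the Fos and Jun dimer (TGACTCA), were found in 3 windows, 5.36% against 9.32%. The E-box of NeuroD-type neuronal factors (CAGATG) was found in 14, 25.0% against 24.0%, and the GC box (GGGCGG) in 7, 12.5% against 9.46%. A T-box (AGGTGTGA) was found in 1 window, the strongest Grik1 site, against 1.04% of the series. REST, the repressor of neuronal genes (CAGCACC and GGACAG with 2 free bases between, up to 2 letters different), matched in 2 windows, 3.57% against 1.63%. An RFX site (GTTNCC and GGNAAC with 2 free bases between) was found in 1. No window held CRE (TGACGTCA), MEF2, NRF1 (GCGC, 2 free bases, GCGC), EGR (GCGTGGGCG), NFI (TTGGC, 5 free bases, GCCAA), ETS (CCGGAAGT), YY1 (AAGATGGCG) or octamer (ATGCAAAT) letters, each of which was found in 0.0725% to 1.92% of the series. All were read on both strands, and only the exact and looser CTCF searches overlap. With 56 windows a count of 0 to 3 is a description of these letters and says nothing of the factors. The windows had a median GC content of 52.5%, against 51.5% for the series.

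Hotspots, joined stretches of at least 50 bp with a significant local cut rate (false discovery rate under 0.05), covered 1.79% of the kainate loci in replicate 1 and 1.47% in replicate 2. Grik5 led with 11.1% and 9.38% of its locus. Grik4 had 2.72% and 1.96%, Grik3 1.49% and 1.36%, Grik1 0.986% and 0.653%, and Grik2 0.705% and 0.753%. The order of Grik5, Grik4 and Grik3 was the same in both animals, while Grik1 and Grik2 changed places. With both libraries averaged, the median coverage was 1.42% for the kainate genes and 2.86% for all protein-coding genes. Among the 200 genes nearest in locus length, Grik1 lay at percentile 29.0, Grik2 at 34.5, Grik3 at 38.0, Grik4 at 84.0 and Grik5 at 97.5.

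Other glutamate receptor genes showed a like range. AMPA receptor genes, which carry fast transmission, had a shared promoter peak at 4 of 4. NMDA receptor genes, which encode the calcium-permeable coincidence detectors, had 5 of 7, and the kainate auxiliary genes Neto1 and Neto2 2 of 2. The share over all protein-coding genes was 64.8%. The NMDA count is close to it, and the lists are short, so these counts say little about the families. The kainate loci held 67 shared peaks, 56 of them distal, beside 42 and 34 at the AMPA loci, 63 and 40 at the NMDA loci and 15 and 8 at the Neto loci. The loci span 1901 kb, 1176 kb, 1311 kb and 216 kb in sum, in the same order. These counts therefore do not rank the families by density. The median percentile of shared distal peaks was 52.0 for the kainate genes, 22.2 for AMPA, 55.5 for NMDA and 63.2 for Neto.

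Per 100 kb of locus, shared peaks ran from 1.40 at Grik2 to 21.8 at Grik5. Among the AMPA genes the ends of the range were Gria3 (1.01) and Gria1 (9.15), and among the NMDA genes Grin3a (2.45) and Grin3b (18.9), whose locus is short at 26.5 kb. Neto2 had 4.74 and Neto1 8.35. By percentile of shared distal peaks, Gria1 (98.0) lay between Grik5 (99.5) and Grik4 (89.8), and the NMDA gene Grin2a (84.25) came next below Grik4. No test was run between the families, whose genes are few and differ in length.

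**Figure D5:**
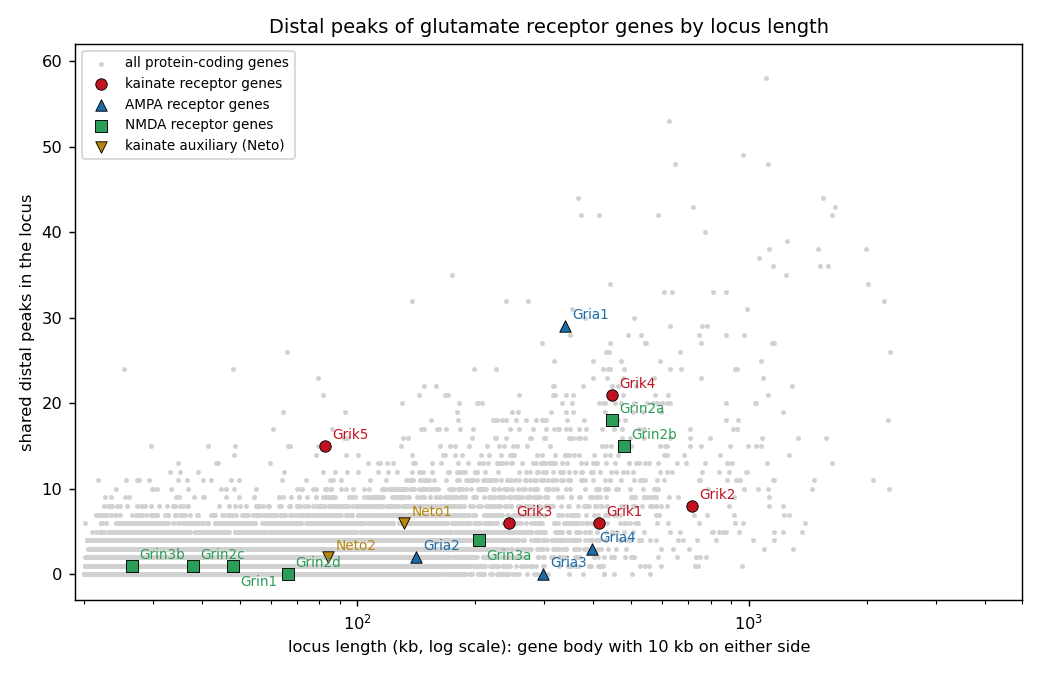
Number of shared distal peaks in the locus (vertical axis) against locus length (horizontal axis, kb, log scale) for kainate, AMPA, NMDA and Neto genes as coloured markers over all protein-coding genes in grey, of which 3 lie above the plotted range. Grik5 lies far above genes of its length and Grik4 in the upper part, while Grik1, Grik2 and Grik3 lie among the bulk.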

How the data were processed

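DNase-seq calls of left cerebral cortex from 2 libraries of 1 group were used. The authors aligned reads to mm10 and called peaks and footprints for each library alone, per the file headers; which callers, versions and filters they used is not given in the sources used here. The deposited signal of a peak is the authors' cut density scaled to read depth. The deposited cut-rate tables hold q-values (false discovery rates under 0.05), and the footprint tables a constant of 0.01. The signal was in whole multiples of a step (100% of values within 0.05 of a step). Reads from CAST/EiJ alleles may align less often.

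The larger peak list of each library was merged with the other at 1 bp of overlap (Python 3.11.15, pandas 2.3.3, numpy 2.4.6); bases and genes came from GRCm38.p6 and GENCODE M21. Merging and overlap code was tested on simulated data. Named sites are the start sites with a peak and, per gene body, the 3 shared distal peaks of highest mean signal. Named comparison genes have the most and fewest shared peaks per 100 kb. Grin2a is an exception, named for its percentile of shared distal peaks. The genes, lists and motifs were chosen with earlier results of these data known. A further comparison family is not reported here.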

Additional observations from a re-analysis of the deposited data

How the results depend on the processing

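All 5 kainate genes kept a shared promoter peak under each of the 6 alternatives that used both libraries, and had a promoter peak in each library taken alone. Groups of start sites with such a peak numbered 6 or 7. The number of shared peaks, 67, was 42 with the stricter peak list and 41 with the upper 50% of peaks by signal, and the distal count, 56, was 31 and 30. The shared percentage of 62.6 became 76.4 with the stricter list, 74.6 with the upper 50% and 51.4 with a reciprocal overlap of 50%. Footprints found in both libraries, 34.8% of those of both libraries together, fell to 26.1% with a reciprocal overlap of 50%. Hotspots, 30961 bp on average, covered 16392 bp at a false discovery rate under 0.001. Without either replicate in turn, peaks numbered 88 to 96, distal peaks 70 to 82, start sites 6 to 7 and hotspot base pairs 27852 to 34070. In single libraries the percentile of Grik5 was 97.0 to 99.2 and of Grik4 77.5 to 83.8. Of 23 named shared peaks, 22 were in the stricter list of both libraries. Their mean signals there were 1 to 1.018 times those of the larger list. Both lists carry nearly the same deposited values, so this comparison does not show how stable the signals are. Chosen after seeing the data, leaving out peaks at other genes' start sites gave 62 shared peaks, and leaving out Grik5 gave 49, of which 41 distal. The larger lists hold weak peaks near their threshold, so a peak of a single library at signals under 0.702 does not show a difference between animals.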
